A study of Drosophila melanogaster with 20 samples.

Results

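Sh, cac, Ca-beta, Teh1, pHCl and cpx are 6 genes of Drosophila melanogaster that encode ion channel subunits and complexin, a protein of the synaptic vesicle release machinery. They were selected on measured values: each belongs to the study's list of 100 genes with the lowest P values in brains dissected 24 h after mating, and each of the 6 had lower transcript abundance in mated than in virgin brains. They are 6 of 387 genes that could be named on an array of 15744 probes. Because the brain values chose them, those values are described here without a test, and tests are given only for heads, which are other samples.

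The females were Canton S and were 5 days old when paired for 2 h with w; P[UAS-dj-GFP] males, whose GFP-marked sperm identified the mated females. Heads were collected at 0-2, 24, 48 and 72 h after mating and brains at 24 h, and every array compared mated with age-matched virgin females directly. Virgins of the 0-2 h experiment met no males and received CO2 anaesthesia as the mated females did. Each of the 5 experiments had 4 arrays with independent samples of about 100 heads or 20 brains, 20 arrays in all, of which 16 were of heads. Mated RNA carried the dye Cy3 on replicates 1 and 2 and Cy5 on replicates 3 and 4. Labelled cDNA was made from head RNA, whereas brain RNA was first amplified into cRNA, so heads and brains also differ in how the labelled material was made. Values are log2 ratios of mated over virgin; a value below 0 means less transcript in mated females.

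A neuron fires when voltage-gated sodium channels open, and voltage-gated potassium channels end the spike. At the synaptic terminal the spike opens voltage-gated calcium channels, and calcium entry triggers the fusion of transmitter-filled vesicles. Chloride channels opened by a ligand or by pH usually damp excitation. Of the 6 genes, Sh (Shaker) encodes the pore-forming subunit of a rapidly inactivating potassium channel, and Teh1 (tipE homolog 1) an accessory subunit of the sodium channel. The gene cac (cacophony) encodes the pore-forming subunit of the presynaptic calcium channel and Ca-beta the cytoplasmic subunit that accompanies calcium channel pores. The gene pHCl encodes a chloride channel gated by pH. The product of cpx, complexin, binds the assembled fusion complex, holds back spontaneous release and promotes release on demand.

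Many spots carried no value. The 6 genes had a value in 20 of 24 positions (83.3%) on the brain arrays and in 46 of 96 on the head arrays, namely 12 of 24 at 0-2 h, 8 at 24 h, 9 at 48 h and 17 at 72 h. Over all probes 39.1% of positions were filled in brains and 16.8% to 34.3% in heads. The arrays of one experiment did not all move together. Across probes the 2 brain arrays with mated RNA in Cy3 correlated at r = 0.64 and the 2 with mated RNA in Cy5 at r = 0.59, whereas brain arrays of opposite orientation correlated at r = -0.39 to -0.22. In heads at 0-2 h opposite orientations also correlated negatively (r = -0.46 to -0.39), and at 48 h positively (r = 0.14 to 0.44). The labels give the deposited values as mated over virgin, so they were taken as already turned for the dye swap. Their means equal the mean ratios that the study lists, by which rows were named. That equality would hold for unturned values too. The brain values themselves do not settle whether they had been turned. A result with the sign of the Cy5 arrays turned is therefore given beside the brain means.

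In brains all 20 values of the 6 genes were below 0, the 10 with mated RNA in Cy3 and the 10 with mated RNA in Cy5. Mean log2 ratios ran from -1.01 for pHCl to -0.54 for Ca-beta and Teh1, the SDs between arrays from 0.12 to 0.40. In a dissected brain, fewer cells that express a gene and less RNA per cell cannot be told apart. No probe of the 6498 tested in brains passed an adjusted p of 0.05 with limma (percent called 0), the lowest adjusted p over all probes was 0.104, and 368 probes (152 lower and 216 higher) had an unadjusted p under 0.05. At the edge of the 100 lowest p the probe at rank 100 had a mean log2 ratio of 0.51 and the next one of -0.85.

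**Figure D1:**
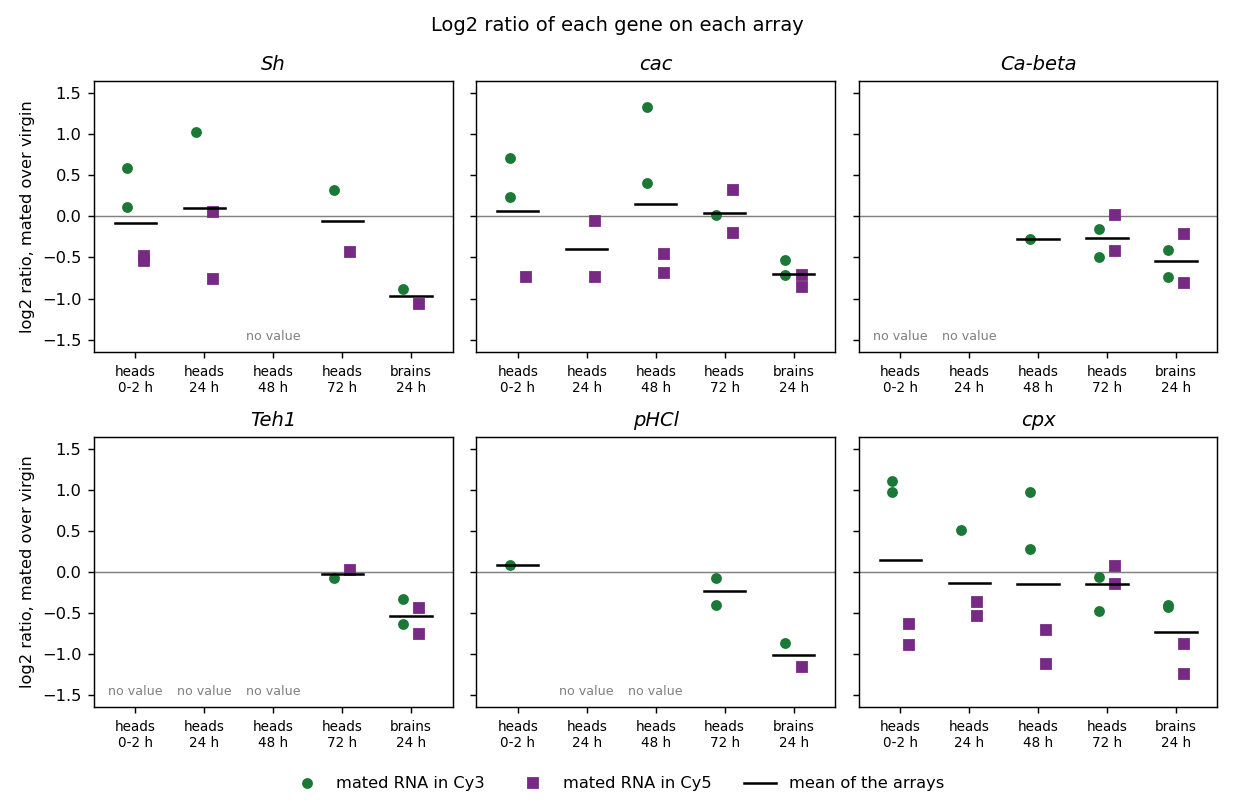
Log2 ratio of mated over virgin females (vertical axis) for each of the 6 genes on every array with a value, by experiment (horizontal axis). Circles are arrays with mated RNA in Cy3, squares arrays with mated RNA in Cy5, and bars the mean of the arrays; all 20 brain values lie below 0, whereas Sh, cac and cpx lie on both sides of 0 in heads.

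Sh, the potassium channel, had values on 2 brain arrays, -0.89 with mated RNA in Cy3 and -1.06 with mated RNA in Cy5. The mean was -0.97 ± 0.12 (SD, n = 2), or 1.96-fold lower in mated brains. In heads at 0-2 h its values were 0.59 and 0.12 on the arrays with mated RNA in Cy3 and -0.49 and -0.54 on those with mated RNA in Cy5. At 24 h, the time that matches the brains, they were 1.03 with mated RNA in Cy3 and -0.76 and 0.05 with mated RNA in Cy5. At 72 h they were 0.32 and -0.44, again the higher with mated RNA in Cy3, and at 48 h Sh had no value. The 2 orientations did not overlap at 0-2 h, with 2 values each. At 24 h the Cy3 orientation had 1 value, so its position outside the Cy5 values says little. At 72 h each orientation had 1 value, and 2 single values cannot overlap. The head means stayed within 0.11 of 0 (-0.08 ± 0.54, n = 4; 0.11 ± 0.90, n = 3; -0.06 ± 0.54, n = 2; SD).

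Teh1, the sodium channel accessory subunit, had all 4 brain values: -0.63 and -0.33 with mated RNA in Cy3, -0.44 and -0.76 with mated RNA in Cy5. Here the orientations overlapped, and the mean was -0.54 ± 0.19 (SD, n = 4). In heads Teh1 was measured at 72 h only, at -0.07 and 0.02 on 1 array of each orientation.

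For cac, the pore of the presynaptic calcium channel, the brain values were -0.71, -0.53, -0.86 and -0.71. They were the tightest of the genes with 4 values, with a mean of -0.71 ± 0.13 (SD, n = 4), or 1.63-fold lower in mated brains. In heads its values with mated RNA in Cy3 were 0.24 and 0.71 at 0-2 h and 0.41 and 1.33 at 48 h, all above 0. With mated RNA in Cy5 they were -0.74 at 0-2 h, -0.74 and -0.06 at 24 h, and -0.45 and -0.69 at 48 h, all below 0. The mean of -0.40 at 24 h therefore comes from 1 orientation only. At 72 h the values were 0.01, -0.20 and 0.32, and the orientations overlapped.

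Ca-beta, the subunit that accompanies calcium channel pores, had brain values of -0.73, -0.40, -0.21 and -0.81, a mean of -0.54 ± 0.28 (SD, n = 4). Its head values were -0.27 on 1 array at 48 h and -0.16, -0.49, 0.02 and -0.42 at 72 h. The 72 h mean of -0.26 ± 0.24 (SD, n = 4) was below 0 on 3 of 4 arrays and had an adjusted p of 0.619 (95% interval -0.54 to 0.02). Ca-beta was the member with the lowest adjusted p in heads.

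The chloride channel gene pHCl had brain values of -0.86 with mated RNA in Cy3 and -1.16 with mated RNA in Cy5, a mean of -1.01 ± 0.21 (SD, n = 2), or 2.02-fold lower in mated brains. In heads it had a value on 3 arrays, all with mated RNA in Cy3: 0.08 at 0-2 h and -0.07 and -0.40 at 72 h. No head value of pHCl came from an array with mated RNA in Cy5.

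Complexin (cpx) was the gene with the most values. Its brain values were -0.43 and -0.40 with mated RNA in Cy3 and -0.88 and -1.24 with mated RNA in Cy5, a mean of -0.74 ± 0.40 (SD, n = 4), and the orientations did not overlap although all lay below 0. In heads with mated RNA in Cy3 the values were 0.98 and 1.11 at 0-2 h, 0.51 at 24 h, and 0.28 and 0.98 at 48 h. With mated RNA in Cy5 they were -0.64 and -0.89 at 0-2 h, -0.54 and -0.36 at 24 h, and -0.71 and -1.13 at 48 h. Each of these 3 times had every Cy3 value above 0 and every Cy5 value below 0. At 72 h the values were -0.06, -0.47, -0.15 and 0.08, and the orientations overlapped.

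With the sign turned on the Cy5 arrays, that is, if the brain values had not been turned for the swap, the brain means would be 0.087 for Sh, 0.058 for Teh1, 0.081 for cac, -0.028 for Ca-beta, 0.15 for pHCl and 0.32 for cpx. The lower abundance of the 6 genes in mated brains holds if the values had been turned, as the labels' ratio of mated over virgin implies. All values of both orientations were below 0, so turning the Cy5 arrays moves each mean toward 0 in either case. These means therefore cannot show whether the values had been turned. This setting was chosen after the data were seen.

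None of the 6 genes passed limma's test in heads. Over the 4 head times 14 tests could be made (4 each for cac and cpx, 3 for Sh and 1 each for Ca-beta, Teh1 and pHCl). None passed an adjusted p of 0.05, none had an unadjusted p under 0.05, and the lowest adjusted p was 0.619. Among all probes 0.0775% passed at 0-2 h, 0.0242% at 24 h, 2.48% at 48 h and 0.0779% at 72 h. An unadjusted p under 0.05 was found for 6.33%, 7.87%, 15.1% and 8.49% of all probes at these times. With 14 tests, none under 0.05 is not far from these shares and says little about the members. The intervals are wide before 72 h. These fits have no dye term, so a difference between orientations counts as spread and widens them. For cpx the 95% interval of the mean ran from -0.69 to 0.97 at 0-2 h, from -0.79 to 0.54 at 24 h and from -0.87 to 0.59 at 48 h, and the brain mean of -0.74 lies inside the last 2 of these. At 72 h it ran from -0.43 to 0.13.

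The mean over all head arrays could be tested for 4 of the genes, those with at least 4 values. It was -0.01 for Sh (SE 0.17, 9 arrays, adjusted p = 0.987), 0.01 for cac (SE 0.16, 12 arrays, adjusted p = 0.987), -0.26 for Ca-beta (SE 0.14, 5 arrays, adjusted p = 0.575) and -0.07 for cpx (SE 0.16, 15 arrays, adjusted p = 0.945). The 95% intervals were -0.38 to 0.36 for Sh, -0.33 to 0.35 for cac, -0.57 to 0.04 for Ca-beta and -0.41 to 0.28 for cpx. The brain means of Sh, cac and cpx lie below these intervals and that of Ca-beta lies inside, which is a description, since the brain means chose the genes. These intervals pool 4 head times, whereas the brains are from 24 h. In heads at 24 h alone the intervals were -0.80 to 1.02 for Sh, -1.18 to 0.38 for cac and -0.79 to 0.54 for cpx. The brain means of cac and cpx lie inside these, and that of Sh lies below. No difference between heads and brains was tested. In this fit 1.94% of 4224 probes passed. With a dye term the intervals were -0.21 to 0.29 for Sh, -0.17 to 0.34 for cac, -0.57 to 0.06 for Ca-beta and -0.28 to 0.21 for cpx. With that term 0 of these genes and 89 of 3934 probes passed. A head holds eyes, fat body, muscle and antennae beside the brain.

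**Figure D2:**
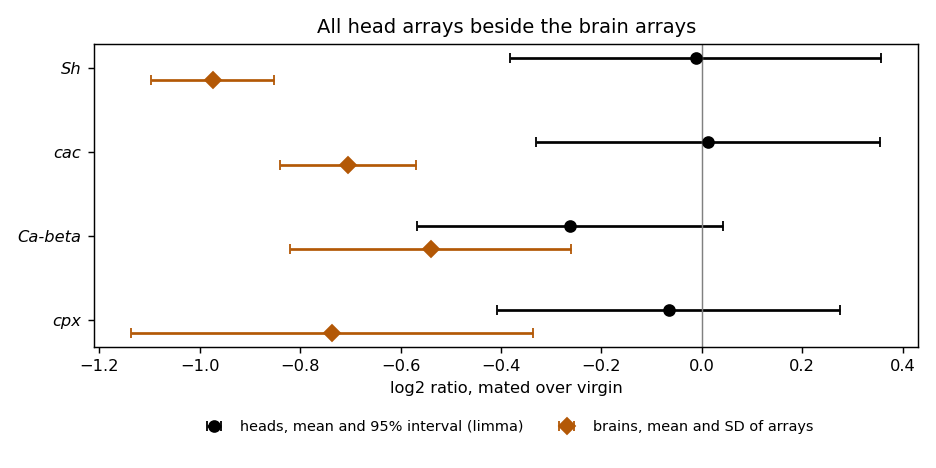
Mean log2 ratio of mated over virgin females (horizontal axis) for the 4 genes with at least 4 head values. Circles with bars are the means over all head arrays of the 4 times with limma's 95% interval. Diamonds with bars are the brain means at 24 h with the SD of the arrays. The head intervals of Sh, cac, Ca-beta and cpx include 0.

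No difference between head times passed limma's test. Of 15 tests of a gene between a pair of times, none passed an adjusted p of 0.05 and none had an unadjusted p under 0.05 (lowest adjusted p 0.704, for cac between 24 and 72 h, a difference of 0.44 with a 95% interval of -0.26 to 1.14). Among all probes 0.22% passed between 0-2 and 24 h, 0.612% between 0-2 and 48 h, 0.0375% between 0-2 and 72 h, 0 between 24 and 48 h, 0 between 24 and 72 h, and 0.304% between 48 and 72 h. The share of all probes with an unadjusted p under 0.05 ran from 5.69% (24 and 48 h) to 12.2% (0-2 and 48 h). With 15 tests, none under 0.05 is not far from these shares.

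Head values of Sh, cac and cpx separated by dye orientation. At 0-2, 24 and 48 h, all 12 values of these 3 genes with mated RNA in Cy3 were above 0 and 14 of 15 values with mated RNA in Cy5 were below 0. In the 7 cases in which a gene had both orientations at one of these times, the orientations did not overlap. For Sh and cpx at 24 h and cac at 0-2 h, 1 orientation had a single value, so the lack of overlap says little there. The share of all probes that separate in this way at these times was not counted, so the counts cannot be read as a trait of these genes. By another measure, limma's fit without the 72 h heads, 29% of 2863 probes had an unadjusted p under 0.05 for the difference between orientations. A difference by orientation is thus not particular to these 3 genes. The difference between orientations over all head arrays (mated RNA in Cy3 minus mated RNA in Cy5, limma, a test added after these values had been seen) was 1.02 for cpx (SE 0.23, adjusted p = 0.0455), 0.95 for Sh (SE 0.23, adjusted p = 0.0743), 0.91 for cac (SE 0.24, adjusted p = 0.0776) and -0.11 for Ca-beta (SE 0.28, adjusted p = 0.867). Only cpx passed the threshold, and 0.89% of 3934 probes did (28 higher and 7 lower with mated RNA in Cy3). By size, cpx ranked 65, Sh 79 and cac 97 from the highest of these probes. Teh1 and pHCl had too few head values for this fit.

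The call for cpx was lost when any one replicate number was left out of all head times, with adjusted p between 0.127 and 0.259 and a difference of 0.97 to 1.08. Among all probes, 0 of 2648, 2 of 3181, 2 of 2899 and 2 of 3177 passed without replicates 1, 2, 3 and 4. The loss of calls is thus not particular to cpx. Without the 72 h heads the differences were 1.48 for cpx, 1.21 for cac and 1.02 for Sh, and all 3 passed, as did 10.1% of 2863 probes (141 lower and 147 higher). The 72 h heads were left out because the orientations of cac and cpx overlapped there, so this setting favours the members and supports nothing about them.

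Across probes, the difference between orientations in heads correlated weakly with the brain mean. Over the 3153 probes with both measures Pearson's r was -0.24, and it was -0.24 without the members. By time, the difference between orientations in 0-2 h heads correlated with the brain mean at r = -0.30, that in 24 h heads at -0.23, that in 48 h heads at -0.35 and that in 72 h heads at 0.16. Probes share arrays and are not independent, and all points share the same 20 arrays, so these are descriptions. Of the 28 probes that passed as higher with mated RNA in Cy3, 20 had a brain mean and 19 of these, cpx among them, were lower in mated brains, with a median of -0.41; over all 3153 probes 51.7% were lower. Of the 5 with a brain mean among those that passed as lower with mated RNA in Cy3, 3 were lower and 2 higher in mated brains. With the sign turned on the Cy5 brain arrays, r was 0.20, and 5 of the 19 probes with both brain orientations were lower and 14 higher (median 0.18).

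On the study's brain list, of the 12 genes that were lower in mated brains and had a head difference, 11 had a head difference above 0 (median 0.39). Ca-beta was the exception, and the 8 that are not among the 6 genes were all above 0. Of the 34 list genes that were higher in mated brains, 13 had a head difference above 0 and 21 below (median -0.09). Over all 3153 probes 43.1% had a head difference above 0 (median -0.06), which is close to the share among the higher list genes. The part of a dye difference in the brain values of these genes was not tested.

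**Figure D3:**
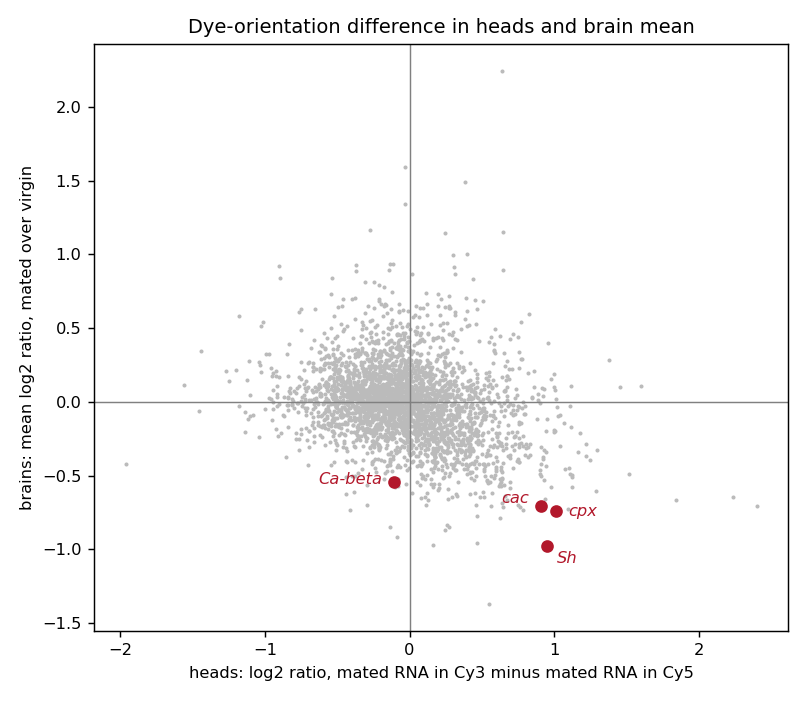
Each point is one of 3153 probes: the difference in log2 ratio between head arrays with mated RNA in Cy3 and in Cy5 (horizontal axis) against the mean log2 ratio of mated over virgin in brains (vertical axis). Sh, cac and cpx lie at the lower right, at head differences of 0.91 to 1.02 and brain means of -0.97 to -0.71, and Ca-beta lies near 0 on the horizontal axis.

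Head values of Sh, cac and cpx resembled one another. Over the 12 head arrays with both, cac and cpx had the same sign on 11 (r = 0.89). Sh and cpx shared 9 head arrays with the same sign on 7 (r = 0.72), and Sh and cac shared 7 with the same sign on 6 (r = 0.78). These arrays include both orientations, so the correlations carry the separation by dye. The other members shared few head arrays. The sign was the same on 0 of 4 for cac and Ca-beta. It was the same on 0 of 2 for Sh and Ca-beta, Sh and Teh1, and cac and Teh1. It was the same on 2 of 2 for Ca-beta and Teh1 and for Ca-beta and pHCl, and on 3 of 3 for pHCl and cpx. Ca-beta and cpx had the same sign on 2 of 5. Over all 20 arrays, brains included, only cac and cpx had at least 12 arrays in common with other named genes. The genes most like cac were cpx (r = 0.89, 16 arrays), Ptp99A, a receptor tyrosine phosphatase of axons (r = 0.80, 14 arrays), and heph, an RNA-binding protein (r = 0.79, 14 arrays). Those most like cpx were cac, CG14408 (r = 0.86, 12 arrays) and Ptp99A (r = 0.83, 16 arrays). These correlations include the brain arrays on which cac, cpx, Ptp99A and heph were all selected. Over head arrays alone r with cac was 0.77 for Ptp99A and 0.76 for heph (10 arrays each), and r with cpx was 0.90 for CG14408 (9 arrays) and 0.76 for Ptp99A (12 arrays).

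Few relatives of the 6 genes could be followed, because a row has a name only through the study's lists. Of 95 genes on the lists of potassium, sodium, calcium, chloride and other cation channels, transmitter receptors and vesicle release, 8 had a name: the 6 genes, the cation channel trpl and Dap160, an endocytic scaffold at the synapse. Neither passed the threshold in heads. At 24 h trpl, a light-activated channel of photoreceptors, had a mean of 1.09 ± 0.35 (SD, n = 3, adjusted p = 0.320), and Dap160 of -1.44 ± 0.37 (SD, n = 2, adjusted p = 0.335). Which way most channel genes moved in brains can therefore not be read from these data, and the share of channels among lower genes was not tested.

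Kinases and RNA-binding proteins of neurons on the study's brain list were mostly lower in mated brains, again by selection. CkIIbeta, a casein kinase subunit, had a mean of -0.85 ± 0.63, Pkc98E, a protein kinase C, of -0.62 ± 0.34, and Pka-C1, the catalytic subunit of protein kinase A, of -0.53 ± 0.26 (SD, n = 4 each). The RNA-binding proteins sm, bru-3, heph and orb2 had means of -0.69, -0.65, -0.64 and -0.60. The diacylglycerol kinase rdgA, which acts in photoreceptors, was higher at 1.03 ± 0.68 (SD, n = 4). With the sign turned on the Cy5 arrays, 6 of the 7 lower genes had a mean above 0 (0.51 for CkIIbeta, the highest) and bru-3 one of -0.14. For the 6 other genes of the pathway lists that could be tested over all head arrays, means ran from -0.25 to 0.19, 3 below and 3 above 0, and none passed the threshold (lowest adjusted p 0.690). Their difference between orientations in heads was above 0 for 5 of 6 and passed for none, the highest being 0.66 for heph (adjusted p = 0.263).

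**Figure D4:**
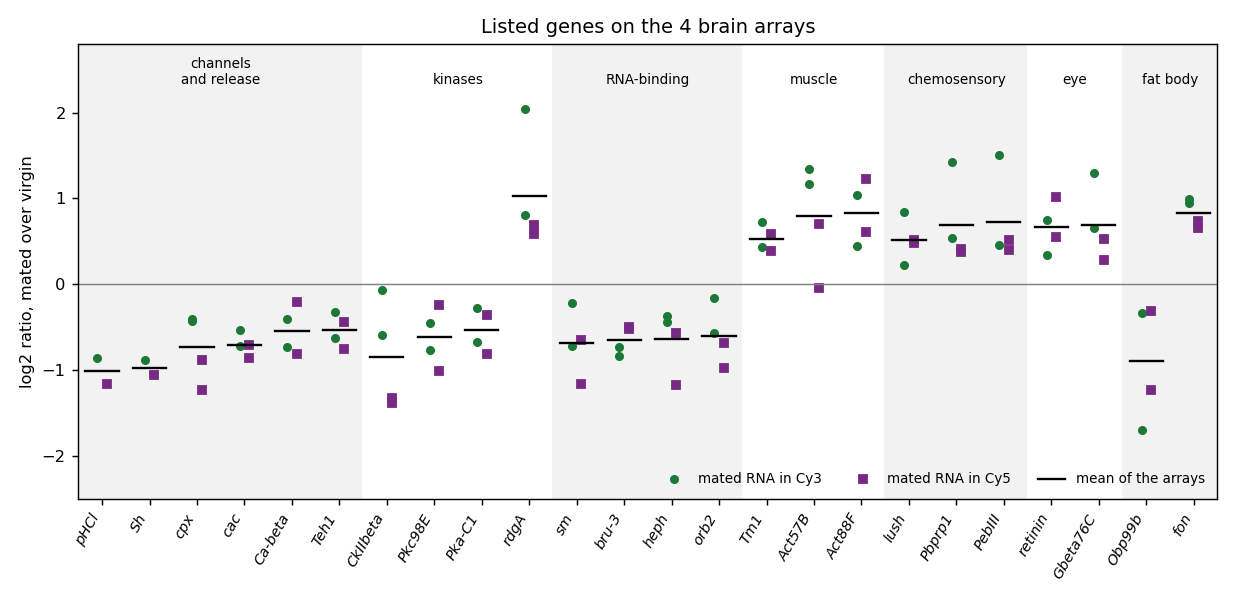
Log2 ratio of mated over virgin females on the 4 brain arrays (vertical axis) for listed genes that the study's brain list names, grouped by list (horizontal axis). Circles are arrays with mated RNA in Cy3, squares those with mated RNA in Cy5, bars the means; the 6 channel and release genes lie below 0 and the muscle, chemosensory and eye markers have means above 0.

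Markers of tissues around the brain lay on both sides of 0 in the same samples. Of the 11 muscle, chemosensory and eye markers with a brain value, 10 were higher in mated brains, with means from -0.02 to 1.03; 9 of them are named through the brain list itself, so the count follows in part from selection. Over all probes tested in brains 47.9% were higher. With the sign turned on the Cy5 arrays 7 of the 11 were higher and 4 lower, with means from -0.26 to 0.46. The muscle genes Act88F, Act57B and Tm1, which encode actins and a tropomyosin, had means of 0.83 ± 0.37, 0.79 ± 0.62 and 0.53 ± 0.15, and PebIII, Pbprp1 and lush of the chemosensory list of 0.72 ± 0.53, 0.69 ± 0.50 and 0.52 ± 0.25 (SD, n = 4 each). The eye genes Gbeta76C, a G protein subunit of phototransduction, and retinin, a protein of the corneal surface, had means of 0.69 ± 0.43 and 0.66 ± 0.29 (SD, n = 4 each). Among fat body markers fon was higher (0.83 ± 0.16) and Obp99b lower (-0.90 ± 0.68), and 7 of 9 had a mean below 0 (6 of 9 with the sign turned). Some of these means lay near 0 or varied widely, as for fit (-0.06 ± 0.44), Tsf1 (-0.08 ± 0.48) and Lsp1beta (-0.88 ± 1.72; SD, n = 4 each). No defining marker of neurons or glia on the lists (8 and 6 genes) has a name in the table, so the share of neurons in the brain samples could not be checked. The part of tissue around the brain in the lower values of the 6 genes was not tested.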

How the data were processed

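The authors deposited, per the labels, one normalized log2 ratio of mated over virgin females for each probe and array, with empty cells; limma is named in the submitters' processing notes. The sources used here do not give the scanner, background correction, normalization or rule for empty cells. Of 15776 rows, 32 controls were left out. Rows carry no gene names. Names came from the study's lists of 100 genes, by mean ratio (relative tolerance 2e-05), number of values and one-sample p (relative tolerance 0.0001); 491 of 499 entries matched. All 6 genes lie on plates 2 to 30 (11136 rows), which hold the same gene in all experiments.

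Probes with at least 2 values (4 over all heads; 2 per orientation for the orientation difference) were tested with limma 3.58.1 (R 4.3.3), two-sided, and p-values were adjusted by Benjamini-Hochberg over every probe in the fit. The number of arrays limits the precision. The fits were run on simulated data with the real pattern of empty cells and equal noise for every probe. The simulation did not copy the spread of single genes, so it is no check of the fits at the spread of these 6. Beside the 6 genes, up to 4 named members of each list and the 3 genes most correlated with a member are given. Members and lists were chosen with earlier results of these data known. Alternatives were centring, scaling, a dye term, stricter minimums, robust eBayes, a replicate block and each replicate left out. Figures used matplotlib. No sequences or coordinates were used here.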

Additional observations from a re-analysis of the deposited data

Results flagged for a closer look

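The 10 sets of 4 array values that a member had in one experiment were searched for an array far from the other 3, and 0 held one. No member had every array of one experiment on one side of 0 and every array of another on the opposite side, apart from pHCl. It had 1 array above 0 at 0-2 h in heads. Both of its arrays in 72 h heads and both in brains were below 0. These differences were not tested.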

How the results depend on the processing

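The count of members past the adjusted threshold in heads was 0 at the 4 times, 0 in the mean of all head arrays and 0 between times under every alternative run for each, leave-one-out fits included. With the replicate block it was 0 for the mean and 0 between times; equal replicate numbers share the dye orientation, and 12 of 24 same-numbered pairs of head arrays deviated together at r over 0.1 (-0.30 to 0.37), so the numbers were not taken as pairs. The orientation difference in heads, added after the data were seen, passed in limma's test for 1 member (35 of 3934 probes). It passed for 2 with arrays scaled to one spread (Sh at 1.03, adjusted p = 0.0315, 51 of 3934 probes). Without the 72 h heads it passed for 3 members (288 of 2863 probes). With a replicate left out it passed for 0 members (0 to 2 probes).

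Head means near 0 changed sign with the setting, 24 of 149 values. With a dye term cac at 0-2 h was -0.13, cpx at 24 h 0.031 and Sh over all heads 0.040. With scaled arrays cac was -0.011 at 72 h and -0.015 over all heads, and with centred arrays -0.0026 over all heads. Leaving out one replicate gave Sh a range of -0.30 to 0.074 (0-2 h), -0.35 to 0.54 (24 h) and -0.34 to 0.26 (all heads), cac a range of -0.25 to 0.48 (0-2 h), -0.25 to 0.43 (48 h), -0.093 to 0.17 (72 h) and -0.19 to 0.17 (all heads), and cpx a range of -0.18 to 0.48 (0-2 h), -0.45 to 0.075 (24 h), -0.52 to 0.18 (48 h) and -0.25 to 0.12 (all heads). The cause was not tested. In brains 42 of 48 values stayed within 1 SD of the same arrays. A median, a mean of the orientations or a mean without 1 array cannot move further than that. Some left-out arrays held no value for the gene. The count is thus mostly fixed in advance and shows little about stability. The other 6 are those with the sign turned on the Cy5 arrays (Sh 0.087, cac 0.081, Teh1 0.058, pHCl 0.15, cpx 0.32, Ca-beta -0.028).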
